A study of Homo sapiens with 3 samples.

Results

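Death receptors and the proteins that carry their signal were followed in YB5 cells after decitabine, carboplatin or both drugs. The 9 genes were FAS, TNFRSF10A, TNFRSF10B, TNFRSF10C, TNFRSF10D, TNFSF10, FADD, CASP8 and CFLAR, chosen by name among the 29846 gene names of the arrays. They were read by 14 of the 41000 gene probes. RNA was compared on 3 two-colour Agilent whole human genome arrays on 1 slide, with 1 array per treatment. On each array RNA of treated cells carried Cy3 and RNA of cells given only the diluent, DMSO, carried Cy5, and the dyes were not exchanged on any array. YB5 is a single clone of the colon cancer line SW48, and all cells compared here, controls included, carry 1 copy of a GFP reporter whose CMV promoter is shut off by CpG methylation. By the sample labels, decitabine, a DNA hypomethylating drug, was given at 25 nM, carboplatin, a platinum drug that crosslinks DNA, at 20 μM, and the combination as both of these doses. The study's text also gives another dose of carboplatin. Drugs were added 4 times, on days 1 to 4, and cells were harvested on day 6. With 1 array per treatment there was no replicate check and no test was possible, and precision is limited by the number of arrays. Bulk RNA cannot tell apart fewer cells that make a transcript and less of it in each cell.

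Death receptors are cell surface proteins of the tumor necrosis factor receptor family with a death domain on the inner side of the membrane. FAS binds the FAS ligand, while the receptors encoded by TNFRSF10A and TNFRSF10B (DR4 and DR5) bind TRAIL, the product of TNFSF10. Bound receptors recruit the adaptor FADD, which gathers the initiator caspase encoded by CASP8, and the caspase-like protein cFLIP, encoded by CFLAR, competes at this step. TNFRSF10C and TNFRSF10D encode decoy receptors that bind TRAIL without an intact death domain. FAS and the TRAIL receptor genes are known targets of p53.

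Each probe is 60 bases long, and stretches of 30 bases are shown for the genes on chromosomes 2, 3, 10 and 11, since several results turn on probes of 1 gene that differed. Positions are those of the scanner files (GRCh37), and which exon or UTR a probe lies in was not analysed here. Capitals mark bases that lie in a run of at least 16 bases shared with a probe of another gene name on the array. Of the 14 probes, 12 shared no such run and 2 did, which is near the 14.1 % of all gene probes that shared one. The brightest CASP8 probe shared runs with probes of 6 other gene names, as did 0.334 % of all probes with that many or more.
FAS, bases 1 to 30 of the probe at chr10:90774545-90774604: atgtctatccacaggctaaccccactctat
TNFSF10, bases 1 to 30 of the probe at chr3:172223866-172223925 (minus strand): gcaacaatccatctctcaagtagtgtatca
FADD, brighter probe, bases 1 to 30, at chr11:70053305-70053364: tctctaaatcttccttgtgaggattatggg
FADD, dimmer probe, bases 1 to 30, at chr11:70052300-70052359: tcgtcagctcaaagtctcagacaccaagat
CASP8, middle probe, bases 1 to 30, at chr2:202151838-202151897: aatccagctatgaatatagagggcttatga
CASP8, dimmest probe, bases 4 to 33, at chr2:202136256-202136315: CAGAAGAAGTGAGCAGAtcagaattgaggt
CFLAR, brighter probe, bases 1 to 30, at chr2:202000731-202000790: aatctggttgccccagatcaactggattta
CFLAR, dimmer probe, bases 1 to 30, at chr2:202025198-202025257: gaaattcttgcatctcagtatgcatggtat

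The array labels went against a gene list of the study, so arrays are called decitabine-labelled and carboplatin-labelled throughout, and the remaining one the combination array. A list of 146 genes given as raised by carboplatin was measured, and 125 of them rose at least 1.5-fold on the decitabine-labelled array, 19 on the carboplatin-labelled array and 56 on the combination array. Without the edge columns described next, the counts were 52, 14 and 47 of 72 genes. TNFRSF10B and TNFRSF10D are on that list, which was drawn up from these arrays, so that their rise is not independent of it. TNFRSF10C is on the study's list of genes raised by both drugs, and the same holds for it. In columns 1 to 9 of the decitabine-labelled array, which hold 10.1 % of its spots, the median log2 change was 0.75, against −0.019 in its other columns. Of the 41 spots of the 9 genes on each array, 2 lie in these columns, 1 of FAS and 1 of CASP8. Among 264 probes spotted 10 times, repeated spots had a pooled SD of the log2 change of 0.230, 0.0751 and 0.0769 on the decitabine-labelled, carboplatin-labelled and combination arrays, and 0.0786 on the first without the edge columns. Of gene spots, 68.2 to 70.3 % were well above background in control cells and 65.8 to 68.5 % in treated cells. Of 10 epithelial and colon genes fixed as markers, 9, 8 and 7 were well above background in control cells on the 3 arrays in that order, with CDX1 below it on all of them. Of 7 genes of blood, vessel, stromal and muscle cells 2 were, CD14 and CD3E, at signals of at most 160, while PTPRC, PECAM1, COL1A2, COL3A1 and DES were not well above background on any array.

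Transcripts of FAS and of 3 TRAIL receptors were higher in treated cells on 2 of the 3 arrays, and those of the adaptor, the caspase and its competitor changed less than 1.5-fold by their brightest probes on every array after loess normalization, with exceptions under other processing given beside each gene. The transcript of the ligand was near background, with both channels measured on the carboplatin-labelled array alone. Changes are log2 ratios, treated signal over control, after normexp background correction and loess within the array, and a gene is given by its brightest probe. A gene counted as raised or lowered from a ratio of 1.5 (0.58 on the log2 scale) with at least 1 channel well above background. Of the 8 genes measured on the decitabine-labelled array, 4 were raised (FAS, TNFRSF10A, TNFRSF10B and TNFRSF10D) and 0 lowered. Of all gene names measured on that array 12.9 % were raised and 5.94 % lowered, and without the edge columns 6.04 and 6.32 %, where the same 4 of 8 genes were raised. Of 9 genes measured on the carboplatin-labelled array, 0 were raised and 0 lowered, against 3.05 and 1.94 % of all. With both drugs 5 of 8 were raised, the 4 above and TNFRSF10C, which was measured there only through its treated channel, and 0 were lowered, against 8.55 and 7.23 % of all.

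The median log2 change over all 9 genes, without regard to background, was 0.35 on the decitabine-labelled array, 0.0097 on the carboplatin-labelled array and 0.73 with both drugs. Over all gene names, again without regard to background, the medians were −0.0012, −0.013 and −0.0042. The 9 genes where measured had medians of 0.58, 0.0097 and 0.83, against 0.0027, −0.024 and −0.0056 over all gene names measured. When each array was centred on its median in place of loess, the median of all gene names moved to −0.31, −0.27 and −0.26, and TNFRSF10B no longer counted as raised on any array. Under that centring 3 of the 8 genes measured were raised and 1 lowered on the decitabine-labelled array, against 9.5 and 28.4 % of all gene names. On the carboplatin-labelled array 1 of 9 was raised and 1 lowered, against 1.76 and 21.4 % of all, and with both drugs 4 of 8 were raised and 1 lowered, against 4.37 and 25 %. The lowered gene was FADD each time, and so many of all genes were lowered under this centring that 1 gene does not stand apart. FAS, TNFRSF10A and TNFRSF10D counted as raised on the decitabine-labelled and combination arrays under every alternative tried.

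**Figure D1:**
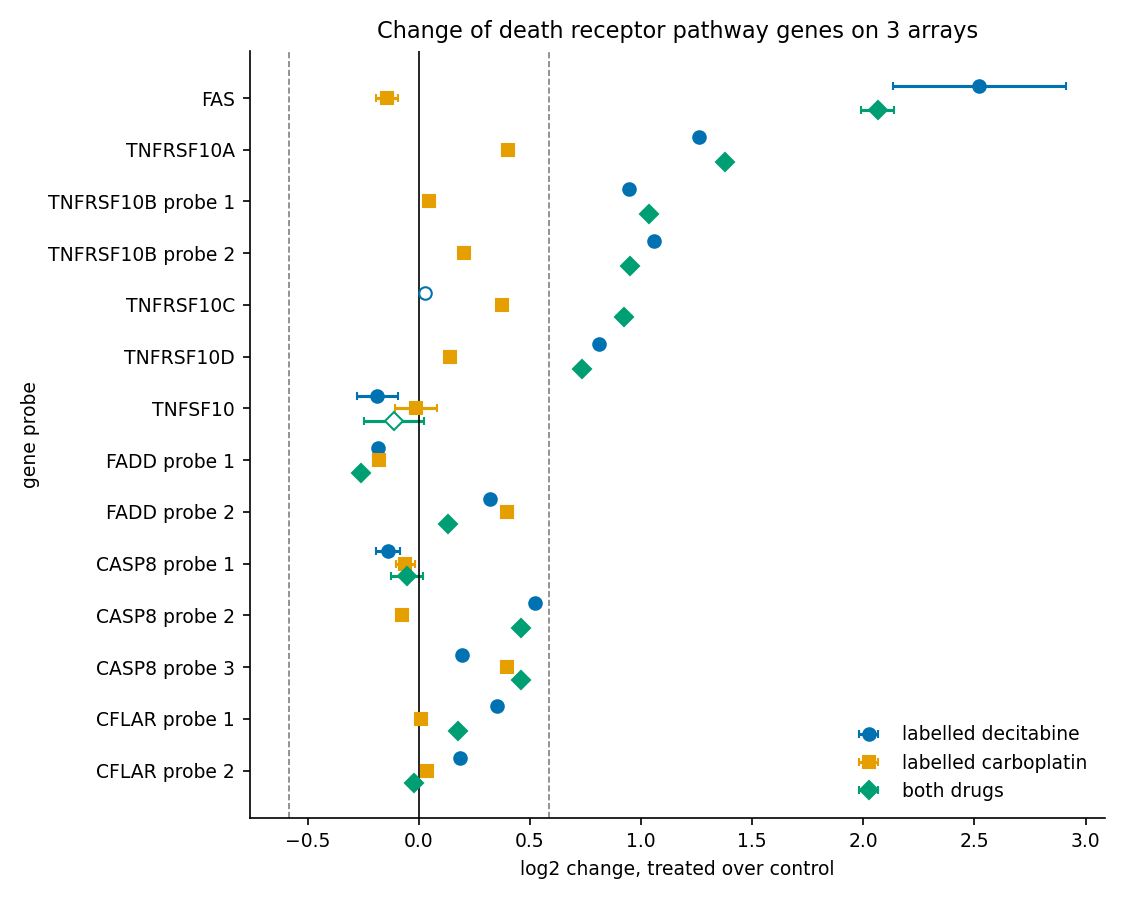
Log2 change of treated over control (x axis) for each of the 14 probes of the 9 genes (y axis) on the decitabine-labelled (circles), carboplatin-labelled (squares) and combination (diamonds) arrays, with dashed lines at a ratio of 1.5. Bars are the SD of repeated spots, drawn for the probes spotted 10 times, and open symbols stand for probes with neither channel well above background. FAS lies farthest to the right on 2 arrays, at 2.52 and 2.06, and at −0.14 on the carboplatin-labelled array.

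FAS, the receptor of the FAS ligand, had the largest change of the 9 genes. Its probe was spotted 10 times on each array, and every spot was well above background in both channels. The mean raw signal on the decitabine-labelled array was 1279 units in control and 3171 in treated cells, with a log2 change of 2.52 (SD of 10 spots 0.389). Signals on the carboplatin-labelled array were 1228 and 502 units, and the change was −0.14 (SD of 10 spots 0.048). With both drugs they were 1094 and 2311 units, and the change was 2.06 (SD of 10 spots 0.076). Raw signals of the channels cannot be set against each other directly, since the treated channel was dimmer on the whole, with a median of 166 against 297 units on the decitabine-labelled array. The spots lay between −0.19 and −0.055 on the carboplatin-labelled array and between 1.95 and 2.21 with both drugs. Spots of an array repeat a single hybridization, so their spread covers the error of spots and not that of cultures, labelling or hybridization. Loess-normalized control levels of FAS varied over the 3 arrays with an SD of 0.017 (log2). The level on the decitabine-labelled array includes the spot in column 5, whose control signal was low, and the SD without that spot was not computed.

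The spot of FAS in column 5 stood apart on the decitabine-labelled array. Its control signal was 431 units, against 1059 to 1829 units at the other 9 spots, and its log2 change was 3.62, against 2.34 to 2.53. Without the edge columns the change of FAS on that array was 2.41, still the largest of the 9 genes. Of all gene names measured, with the edge columns in, 45 (0.220 %) had a higher log2 change than FAS on the decitabine-labelled array. With both drugs 84 (0.413 %) had a higher one, while 69.5 % lay above FAS on the carboplatin-labelled array. CASP8 had its edge spot in column 6, where the change on the decitabine-labelled array was 1.29 at a control signal of 480 units, and this spot was left out there as an outlier by the scanner software's mark.

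**Figure D2:**
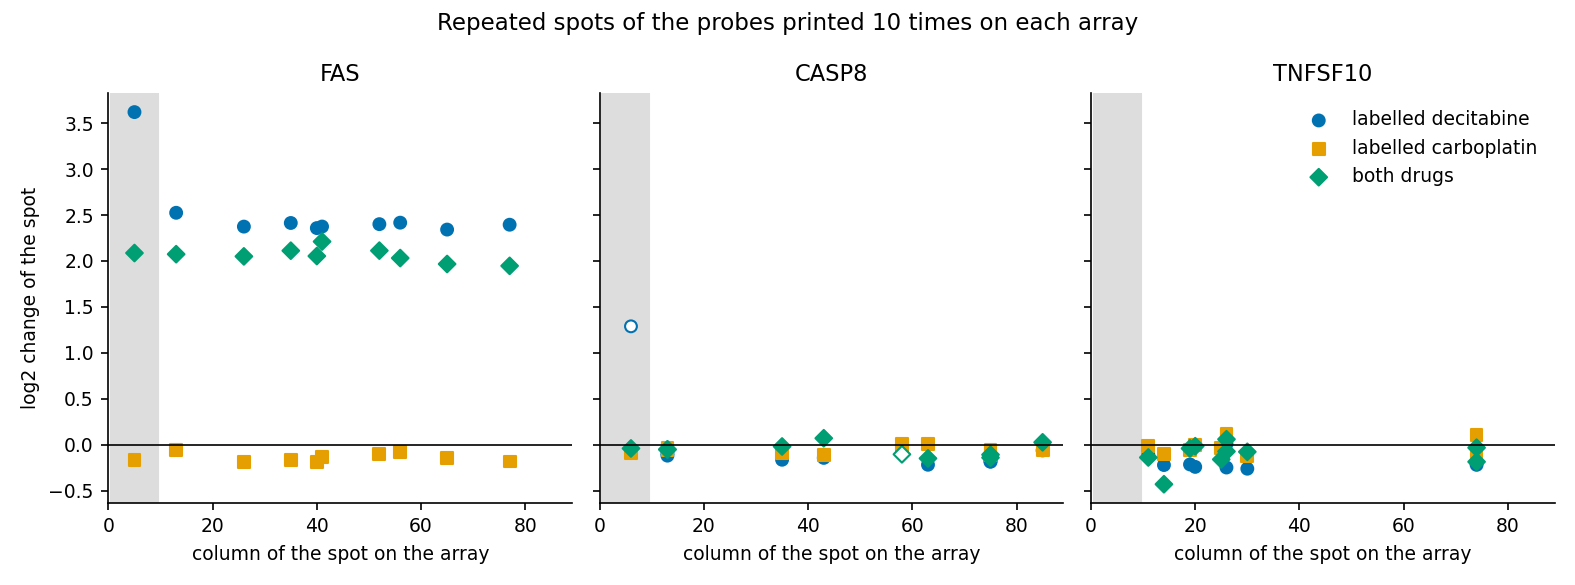
Log2 change of each spot (y axis) against its column on the array (x axis) for FAS, the brightest CASP8 probe and TNFSF10, whose probes were spotted 10 times, with columns 1 to 9 shaded and spots left out as outliers open. In the shaded columns the decitabine-labelled array gives 3.62 for FAS and 1.29 for CASP8, away from the other spots of the same probes.

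The start sites of the genes were looked up in RefSeq (GRCh38.p14), which gave 300-base windows for 5 of the 9 genes, 12 windows in all. TNFRSF10A, TNFRSF10B, TNFRSF10C and TNFRSF10D were not matched. The 3 FAS windows held 18, 22 and 14 CpG dinucleotides and the FADD window 36, while the TNFSF10 window held 3 and the 3 CASP8 windows 5 or 6 each. The 4 CFLAR windows held 21, 22, 0 and 1. The median over 35116 windows was 14. A p53 half-site, a motif of 10 bases that reads alike on both strands and of which a full p53 site holds a pair, was found in 1 window of FAS, 122 bases before its start site, and in 1 window of CASP8, 121 bases before its start site. Of all windows 6.63 % hold such a half-site. The half-sites are shown in capitals because p53 is known to act on FAS. Only single half-sites were sought, not pairs, and whether p53 acted on FAS or CASP8 in these cells was not tested.
FAS, chr10:88991299-88991328 (plus strand): cggaactcctGGACAAGCCCtgacaagcca
CASP8, chr2:201257904-201257933 (plus strand): ctttccaataAAGCATGTCCagcgctcggg

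TNFRSF10A and TNFRSF10B, which encode the TRAIL receptors with a death domain, were raised on the decitabine-labelled and combination arrays. For TNFRSF10A (chromosome 8, 23049253 to 23049312) the raw control signals were 1695, 1445 and 1441 units on the decitabine-labelled, carboplatin-labelled and combination arrays, and the treated signals 1824, 846 and 1866 units. Its log2 changes were 1.26, 0.40 and 1.38 in that order, with an SD of control levels of 0.122 over the arrays. The change on the carboplatin-labelled array, a ratio of 1.32, was under the threshold, and 7.56 % of gene names lay above it there. With both drugs 1.39 % lay above TNFRSF10A.

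TNFRSF10B was read by a pair of probes that do not overlap and that gave like values. The brighter probe (chromosome 8, 22877776 to 22877835) had control signals of 13560, 14590 and 11946 units and treated signals of 11215, 6163 and 11562 units, with log2 changes of 0.94, 0.04 and 1.04. The dimmer probe (22880208 to 22880267) had control signals of 1593, 1488 and 1417 units, and its log2 changes were 1.06, 0.20 and 0.95. On the decitabine-labelled and combination arrays both probes were past the threshold, and on the carboplatin-labelled array both were under it. Under median centring the brighter probe gave 0.36, −0.47 and 0.52, which is under the threshold on all 3 arrays.

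The decoy receptor genes had dim probes, so their values are less certain. TNFRSF10D (chromosome 8) is read by a probe of 60 bases whose position spans 638 bases, from 23002597 to 23003234, as for a probe across an intron. Its control signals were 131, 137 and 152 units and its treated signals 137, 94.2 and 155 units, against local backgrounds of 61.5 to 67 and 50 to 53 units. The log2 changes were 0.81, 0.14 and 0.73, raised on the decitabine-labelled and combination arrays. Such a dim probe moves with the background step, and with an offset of 10 in place of 50 its changes were 1.15, 0.22 and 1.00, and by the scanner's own log ratio 1.84, 0.47 and 1.26.

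TNFRSF10C (chromosome 8, 22974483 to 22974542) was not well above background in the control channel on any array. On the decitabine-labelled array the treated channel was not above it either, with signals of 85.6 and 63.4 units over local backgrounds of 70.5 and 55 units, and no change is given. After loess, treated cells were at least 1.30-fold higher on the carboplatin-labelled array and at least 1.90-fold with both drugs, both set against its own control signal. These limits are the measured log2 changes themselves, 0.37 and 0.92, and rest on the processing. Over all ways of processing the change with both drugs lay between 0.84 and 2.38. By the scanner's log ratio the change on the carboplatin-labelled array was 1.96, past the threshold, and with the smaller offset it was 0.68. Over the alternatives, TNFRSF10C had the widest range of the 9 genes on that array, from 0.36 to 1.96.

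The 4 TRAIL receptor genes lie side by side, with their probes within 171537 bases. The arrays also name 7 other genes with a brightest probe between them or within 250 kb on either side, among them RHOBTB2, CHMP7 and LOXL2. Of these, 0 of the 6 measured on the decitabine-labelled array were raised and 1 was lowered, with changes from −0.90 (LOXL2, in the edge columns) to 0.58 (CHMP7, just under the threshold) and a median of −0.076. Of all gene names measured on that array 12.9 % were raised and 5.94 % lowered. With both drugs 0 of 7 were raised and 1, again LOXL2, was lowered, against 8.55 and 7.23 % of all, with a median of 0.18. Of 6 measured on the carboplatin-labelled array, 0 were raised or lowered, against 3.05 and 1.94 % of all, and their median was 0.36. With so few neighbours, their counts cannot be told from these shares. These neighbours were looked up after the values of the receptors had been seen.

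**Figure D3:**
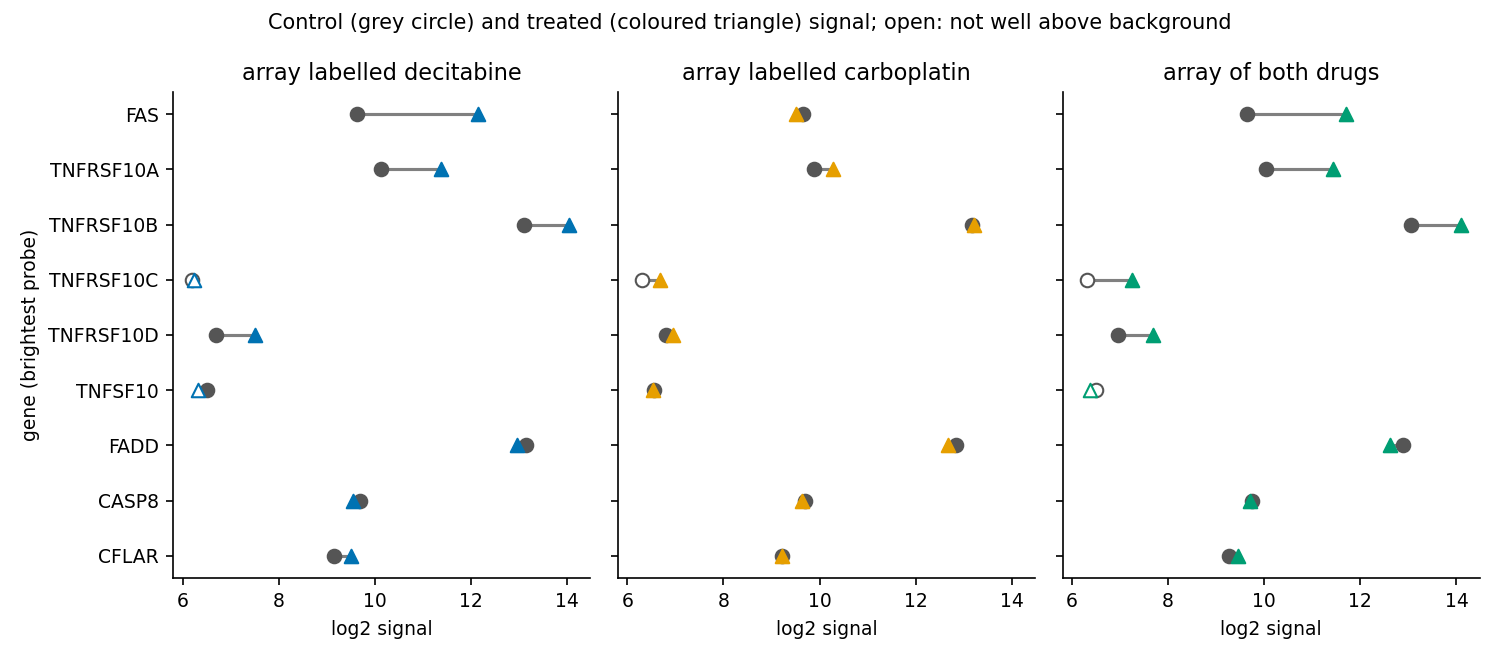
Normalized log2 signal (x axis) of the control channel (grey circles) and the treated channel (coloured triangles) for the brightest probe of each gene (y axis), with 1 panel for each array and open symbols for a channel not well above background. The distance within a row is the log2 change, as from 9.62 to 12.14 for FAS on the decitabine-labelled array. Positions of different genes cannot be compared, because each probe has its own brightness.

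TNFSF10, which encodes the ligand TRAIL, was near background on all arrays. Its probe was spotted 10 times. Its mean signals on the decitabine-labelled array were 112 in control and 64.9 units in treated cells, with 7 of 9 used spots well above background in control and 0 in treated cells, so that after loess it was at least 1.14-fold lower. This limit, a log2 change of −0.19, rests on the processing, since the change was −0.17 without the edge columns and 0.058 under median centring, where treated cells were not lower. On the carboplatin-labelled array the signals were 111 and 73.1 units and the log2 change was −0.013 (SD of 10 spots 0.093). With both drugs they were 102 and 67.1 units, and neither channel was well above background in most spots. The scanner's log ratio, which rests on the software's background-subtracted signals, gave −1.16 on the decitabine-labelled array and −0.63 with both drugs, so that a fall of TNFSF10 counts by that measure on the first and has no call on the other.

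FADD, the adaptor that joins receptor and caspase, was read by a pair of probes with changes of opposite sign. The brighter probe had control signals of 14135, 11405 and 10493 units and treated signals of 5396, 4168 and 4233 units on the decitabine-labelled, carboplatin-labelled and combination arrays. Its log2 changes were −0.18, −0.18 and −0.26, and its control levels had an SD of 0.169 over the arrays. The dimmer probe, with control signals of 620, 649 and 531 units, gave 0.32, 0.40 and 0.13. No value of either probe passed the threshold by loess, and the sign of the change of FADD depends on the probe. Under median centring the brighter probe gave −0.75, −0.68 and −0.74, past the threshold.

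CASP8, the initiator caspase at the receptors, also differed between its probes. The brightest, which shares runs with probes of other genes, had mean control signals of 1225, 1264 and 1152 units and treated signals of 519, 544 and 579 units. Its log2 changes were −0.14 (SD of 9 spots 0.056), −0.060 (SD of 10 spots 0.044) and −0.053 (SD of 9 spots 0.073). The middle probe, which shares no run of that length with other genes, had control signals of 1011, 897 and 848 units and changes of 0.52, −0.076 and 0.46. The dimmest probe had control signals of 173, 145 and 145 units and changes of 0.20, 0.40 and 0.46. On the decitabine-labelled and combination arrays the middle probe was higher in treated cells by a ratio of 1.44 and 1.38, under the threshold, where the brightest probe was not higher. The part of the shared runs in this difference was not tested.

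CFLAR encodes cFLIP, which holds back the caspase at the receptors. Its brighter probe had control signals of 839, 893 and 828 units, treated signals of 505, 415 and 490 units and log2 changes of 0.35, 0.0097 and 0.18 on the decitabine-labelled, carboplatin-labelled and combination arrays. The dimmer probe had control signals of 255, 255 and 228 units and changes of 0.19, 0.036 and −0.020. All of these lie under the threshold. Control levels of the pair had SDs of 0.059 and 0.022 over the arrays.

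Next, the combination array was compared with each single-drug array, gene by gene. Each change was taken against its own control channel, and the preference of a probe for a dye drops out of such a difference. The SD of a difference expected from single spots alone was 0.109 between the combination array and the decitabine-labelled array without the edge columns and 0.106 between the former and the carboplatin-labelled array. These cover the error of spots within an array and not that of cultures, labelling or hybridization. Compared with the carboplatin-labelled array, the log2 change with both drugs was higher by 2.21 for FAS, 0.97 for TNFRSF10A and 0.99 for TNFRSF10B (0.74 by its dimmer probe). For TNFRSF10D the difference was 0.59, and 0.38 under median centring. For CASP8 it was 0.0075 by the brightest probe, 0.54 by the middle and 0.063 by the dimmest. The differences of FAS, TNFRSF10A, TNFRSF10B and TNFRSF10D are ratios of 4.62, 1.96, 1.99 and 1.51.

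The combination array and the decitabine-labelled array lay close for most of these genes. The change with both drugs minus that on the decitabine-labelled array was −0.46 for FAS, and −0.35 without the edge columns, so that FAS was lower with both drugs than on that array. It was 0.12 for TNFRSF10A, 0.092 for the brighter and −0.11 for the dimmer probe of TNFRSF10B and −0.079 for TNFRSF10D, each of which is about the error of single spots or less. For the dim probe of TNFRSF10D this depends on the processing, as the scanner's log ratio gave a difference of −0.59 and the authors' deposited values gave 0.10. For TNFRSF10C, which has no measured value on the decitabine-labelled array, no difference is given. FADD, CASP8 and CFLAR differed by −0.18 to 0.085 by their brightest probes.

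**Figure D4:**
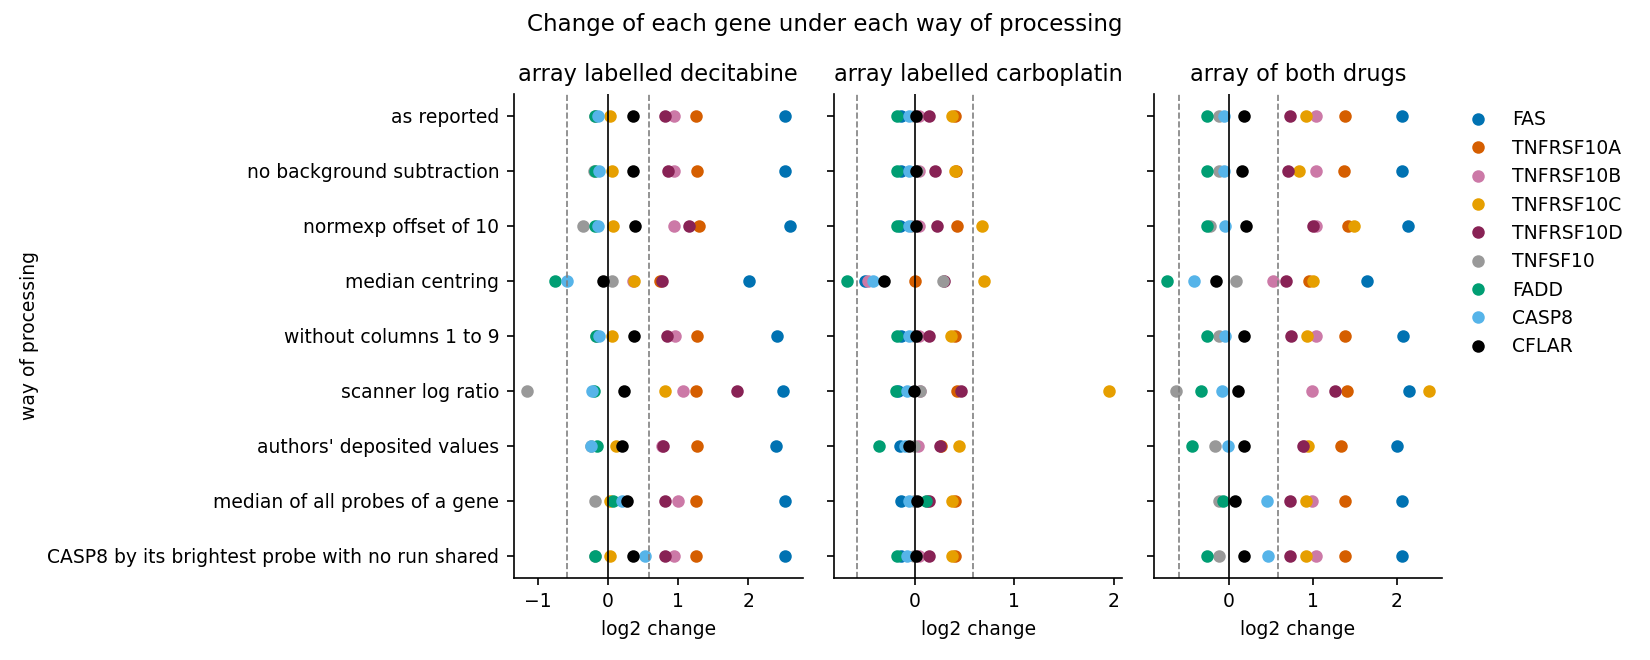
Log2 change (x axis) of each of the 9 genes (colours) under each way of processing the arrays (y axis), with 1 panel for each array and dashed lines at a ratio of 1.5. FAS stays between 2.01 and 2.59 on the decitabine-labelled array and between 1.65 and 2.14 with both drugs. TNFRSF10C ranges from 0.36 to 1.96 on the carboplatin-labelled array, and TNFSF10 from −1.16 to 0.06 on the decitabine-labelled array.

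Among 27 other genes of the extrinsic pathway, 24 were measured on the decitabine-labelled and carboplatin-labelled arrays and 25 on the combination array. The decitabine-labelled array had 6 of 24 raised and 0 lowered, against 12.9 and 5.94 % of all gene names. Without the edge columns 2 of the 24, DAXX and BID, drop out with their brightest probes. Of the remaining genes 5 were raised and 0 lowered, against 6.04 and 6.32 % of all. The carboplatin-labelled array had 2 of 24 raised and 1 lowered, against 3.05 and 1.94 % of all. With both drugs 3 of 25 were raised and 1 lowered, which is near the 8.55 and 7.23 % of all. Their median log2 changes were 0.092, 0.073 and 0.087.

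Of 5 other receptors and decoys, TNFRSF21 (death receptor 6) had changes of 0.62, 0.30 and 0.69 on the decitabine-labelled, carboplatin-labelled and combination arrays. TNFRSF11B, a soluble decoy that binds TRAIL, had changes of 0.97, −0.64 and 0.28, and its other probe went the same way with 0.88, −0.42 and 0.21. TNFRSF1A, TNFRSF25 and TNFRSF6B stayed under the threshold on all 3 arrays. Among the ligands, FASLG and TNF were not well above background on any array, and TNFSF15, the ligand of death receptor 3, had changes of 1.00, −0.52 and 0.47. The FAS ligand was therefore not detectable at the signal of these arrays in cells where the transcript of its receptor rose.

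Among 9 adaptors and regulators, DEDD2, a nuclear protein with a death effector domain, was raised on all 3 arrays with 0.62, 0.61 and 0.78. TRAF2, which links tumor necrosis factor receptors to NF-κB signalling, was raised on the carboplatin-labelled array with 0.64, against 0.10 and 0.27 on the decitabine-labelled and combination arrays. TRADD, RIPK1, CRADD, DEDD, PEA15, DAXX and FAF1 were under the threshold on each array. Of the caspases, CASP10, the closest relative of CASP8, was well above background only in the treated channel of the combination array, and CASP6, an effector caspase, had changes of 0.13, 0.24 and 0.05.

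BID, which caspase 8 cleaves to engage mitochondria, had changes of 1.47, 0.07 and 0.12, but this brightest probe lies in the edge columns, and its control signal on the decitabine-labelled array was 7180 units against 19125 and 15934 units on the others. The other BID probe gave −0.13, −0.070 and −0.21. Among inhibitors of caspases and their antagonist, BIRC3 (cIAP2), a target of NF-κB, was raised with 1.499 on the decitabine-labelled array and 1.28 with both drugs and was −0.43 on the carboplatin-labelled array. FAIM, an inhibitor of FAS-induced death, had changes of −0.50, −0.28 and −0.79 and was lowered with both drugs. BIRC2, XIAP and DIABLO stayed under the threshold on all arrays.

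**Figure D5:**
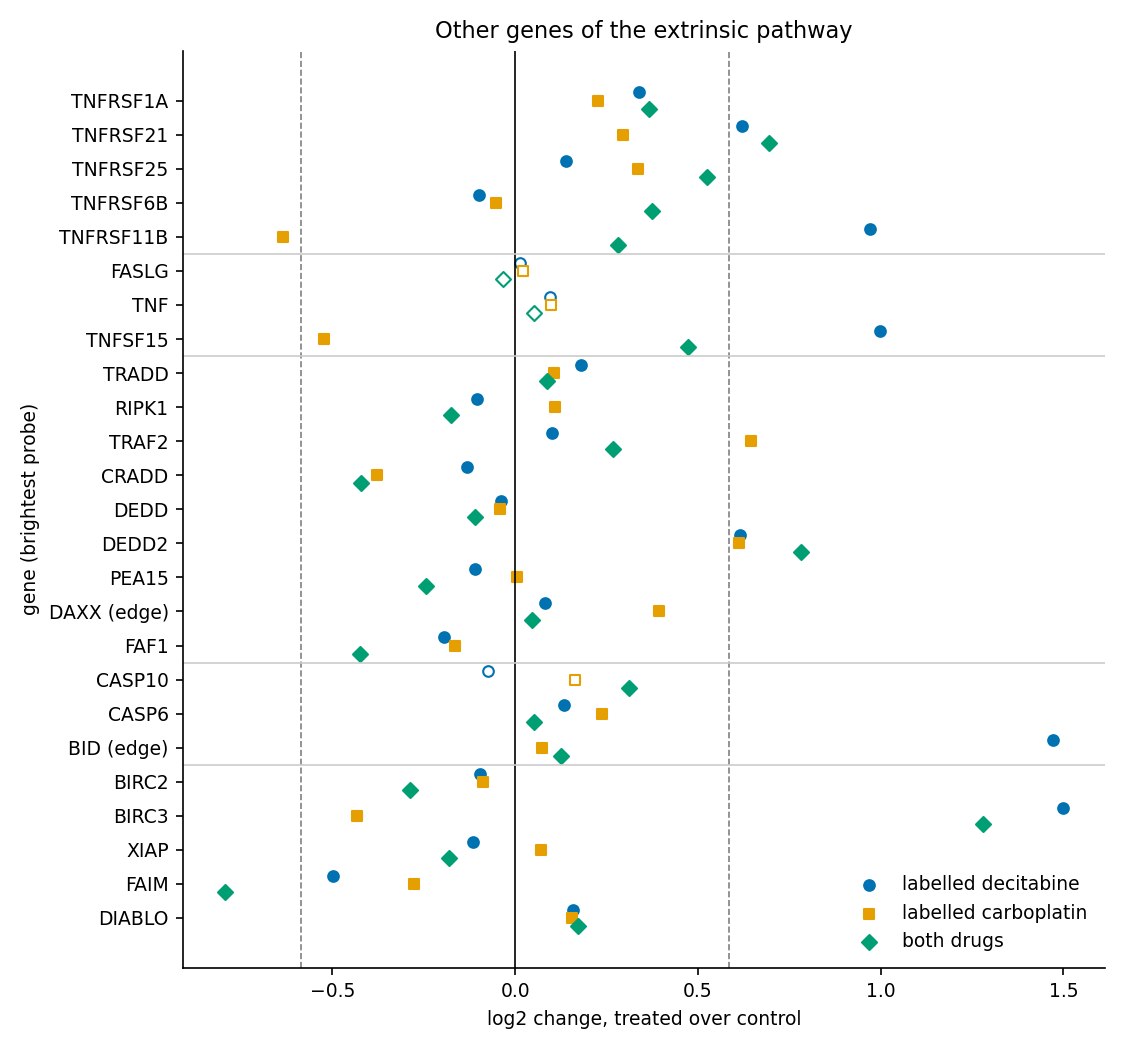
Log2 change (x axis) of the brightest probe of 25 of the 27 other genes of the extrinsic pathway (y axis) on the decitabine-labelled (circles), carboplatin-labelled (squares) and combination (diamonds) arrays, grouped from receptors at the top to caspase inhibitors at the bottom, with dashed lines at a ratio of 1.5. Open symbols have neither channel well above background, and "edge" marks probes in columns 1 to 9. BIRC3 reaches 1.499 and 1.28 on 2 arrays, and BID reaches 1.47 only on the decitabine-labelled array, where its spot is in the edge columns.

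FAS had the largest mean absolute change of the 9 genes over the 3 arrays, 1.58, and the genes most like it were sought by the distance between their 3 log2 changes. Among 17668 genes measured on all arrays outside the edge columns, the nearest was PRDM1, a transcription repressor that acts in lymphocyte differentiation. It lay at a distance of 0.354, with changes of 2.17, −0.12 and 2.05. ZNF561 (distance 0.478) had changes of 2.21, 0.044 and 1.75. PHLDA1, a pleckstrin homology domain gene, had changes of 2.06, −0.19 and 1.94 at a distance of 0.486. WDR63 (0.523) and PROM2 (0.601) followed. Since FAS itself includes its edge spot, its distance to these genes is in part that spot, which raised its change on the decitabine-labelled array from 2.41 to 2.52. Each likeness rests on 3 values.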

How the data were processed

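RNA of treated (Cy3) and control (Cy5) YB5 cells was measured on 3 two-colour arrays. The authors deposited the spot intensity of each channel and its log10 ratio, per the file headers from Feature Extraction 9.5.3.1 (8.5.1.1 in the submitters' processing notes, which also name R 3.0.2 and limma), and a table of loess-normalized log2 ratios whose background step is not stated. Here R 4.3.3 and limma 3.58.1 were used on the mean signals, with normexp (offset 50, median local background) and loess within each array, tested on simulated data. Control spots and spots marked as outliers (276, 111 and 89 of the gene spots) were left out, and spots of 1 probe were averaged. Channel levels were scaled by Aquantile. Limits for a channel below background use the higher of the lowest signal well above background and the probe's own signal, and are open to dye bias. Probe sequences are those of the scanner files and start-site windows those of RefSeq (GRCh38.p14). No p-value is given. Some pathway genes and 1 probe sequence are not reported here. The rule for named genes took the 9 members with all probes, other pathway genes that changed at least 1.5-fold on an array, and the 5 nearest to the member with the largest mean absolute change. Pathway genes under that threshold or below background, the receptors' neighbours on chromosome 8 and the marker genes are named outside this rule. Members and lists were chosen with earlier results of these data known.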

Additional observations from a re-analysis of the deposited data

Results flagged for a closer look

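TNFRSF11B was raised on the decitabine-labelled array, with a log2 change of 0.97, and lowered on the carboplatin-labelled array, with −0.64. The opposite directions called attention to it, and the difference between the arrays was not tested. Its control signals on these arrays were 310 and 312 units, and its brightest probe lies outside the edge columns. None of the 9 death receptor genes was past the threshold in opposite directions on different arrays. No treatment had the 4 arrays needed to look for an outlying sample.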

How the results depend on the processing

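The medians of the 9 genes where measured were 0.58, 0.0097 and 0.83 on the decitabine-labelled, carboplatin-labelled and combination arrays. With 10 alternatives, 75 of 90 counts and medians of the 9 genes moved by less than the limits set for them. A count has no direction to turn, and the medians of 0.583 and 0.0097 were under the threshold of 0.585. Only the median with both drugs could therefore turn direction past the threshold, and it stayed positive under every alternative. The median on the carboplatin-labelled array changed sign under some alternatives, as to −0.31 under median centring. With an offset of 10, 1 gene was raised on the carboplatin-labelled array, against 4.23 % of all gene names, and the median with both drugs was 1.02. Median centring gave 1 gene lowered on each array, where 28.4, 21.4 and 25 % of all gene names were lowered, and 1 raised on the carboplatin-labelled array, against 1.76 % of all, with medians of 0.21, −0.31 and 0.60. By the scanner log ratio 1 gene was lowered on the decitabine-labelled array, against 14.1 % of all, and 1 raised on the carboplatin-labelled array, against 5.92 %, and the median with both drugs was 1.13. That median was 0.73 both without the filter on dim probes, which adds TNFSF10, and with both channels required above background, which drops TNFRSF10C. By the median of all probes of a gene, the median on the carboplatin-labelled array was 0.11. The cause was not tested beyond these constructions. Leaving out columns 1 to 9 and the authors' deposited values moved none of these counts and medians past the limits. By the deposited values the medians were 0.485, −0.01 and 0.89. Giving CASP8 by its middle probe, an alternative chosen after seeing the data, moved none past the limits either. Of 360 single values under 8 alternatives, 73 moved and 0 of those past the threshold changed sign. No paired analysis was possible because each treatment has 1 array. Dim probes limit TNFRSF10C, TNFRSF10D and TNFSF10 most.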
